A study of Mus musculus with 4 samples.

Results

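The genes that make, break down, package and sense gamma-aminobutyric acid (GABA) were followed in pancreatic islets of C57BL/6 mice aged 24 weeks. They are Gad1, Gad2, Abat, Aldh5a1, Slc32a1, Gabra4, Gabbr1 and Gabbr2, 8 genes with 14 probes among 22328 genes and 55681 probes on the array. All probes that the scanner files name for these genes were taken, whatever their value. The set was built around Gad1, which was chosen by its reading on the male Tg array, further below that on the male WT array than for any other named gene. Male Tg against male WT is therefore a description here and supports nothing.

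Each of 4 groups was read on 1 one-colour Agilent array. Male Tg E2 are transgenic males 6 weeks after an E2 implant, E2 being the usual short name of estradiol. Female Tg are transgenic females. Male Tg are transgenic males labelled diabetic, with no implant named, and male WT are wild-type males. The transgene, the promoter that drives it and the number of mice behind an array are not named in the labels used here, and no wild-type female array was analysed here. All islets were freed with collagenase, separated on a density gradient and picked under a microscope. With 1 array per group every difference below is one between single arrays, with no replicate check and no test. The standard errors are those of the scanner software's error model and leave out the variation between mice. The number of arrays limits the precision.

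GABA is made from glutamate by glutamate decarboxylase, which exists as GAD67, the product of Gad1, and GAD65, the product of Gad2. It is taken apart by GABA transaminase (Abat) and succinate semialdehyde dehydrogenase (Aldh5a1), which return its carbon to the citric acid cycle as succinate, a route called the GABA shunt. Outside the brain the beta cells of the islet are among the cells richest in GABA, and islet cells carry both the ion channel (GABA-A) and the G protein-coupled (GABA-B) receptors for it. GAD65 is a target of autoantibodies in human type 1 diabetes, and rodent studies place GAD67 as the main form in mouse beta cells.

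Levels are log2 of the background-corrected intensity minus the 75th percentile of the same array, so that 0 is that percentile, and they compare arrays for 1 probe and never 1 probe with another. A gene counts as measured in a comparison if the scanner software called its probe well above background on both arrays. Below, "on male Tg" and the like mean on the array of that group. Where only 1 of the arrays reached that call, the difference is a bound, written as "at least", set against the weakest signal that counted as above background on the dimmer array or the probe's own signal, whichever was higher. All 8 genes were above background on at least 1 array and 4 of them on all 4 arrays, namely Gad1, Abat, Aldh5a1 and Gabbr1. Of the 14 probes, 6 were above background on all 4 arrays and 2 on none.

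Between 49.9% and 54.8% of spots were well above background per array, the 75th percentile of intensity lay between 230 (male Tg) and 410 (male WT), and no spot was saturated. Within an array, the spots of probes printed 10 times had a standard deviation with a median of 0.0657 to 0.0755 log2. All 12 beta cell markers were above background on all 4 arrays. The summed level of 12 acinar markers, in multiples of the 75th percentile, was 6889 on male Tg E2, 1431 on female Tg, 11027 on male Tg and 1335 on male WT. Acinar RNA was thus high on the male Tg E2 and male Tg arrays and low on the female Tg and male WT arrays.

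Gad1 had the widest range of the 8 genes. Its probe lies at chr2:70439699-70439758 on the plus strand of mm9, the build of the probe positions in the files. The intensity was 270 on male Tg E2, 203 on female Tg, 38.9 on male Tg and 3912 on male WT. As log2 levels these are −0.15 for male Tg E2, −0.36 for female Tg, −2.38 for male Tg and 3.42 for male WT. The male WT array stood far above the 3 transgenic arrays, and the male Tg array stood below the other two transgenic arrays. On the male Tg array Gad1 was 55.7-fold lower than on male WT (log2 −5.80, SE 0.25), the value that chose the genes. The genes just outside that choice were Cib3 (−5.37) and T2 (−5.12).

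Gad1 was also low on the transgenic arrays whose values did not choose it. It was 11.9-fold lower on male Tg E2 than on male WT (−3.57, SE 0.21) and ranked 3 from the lowest of 14587 measured genes. It was 13.8-fold lower on female Tg than on male WT (−3.78, SE 0.21) and was the lowest of 14217 measured genes. Both comparisons share the male WT array with the one that chose the gene, so a high reading there lowers all 3, and in the comparison of females with wild-type males sex and transgene cannot be told apart. In bulk islet RNA, fewer cells of a type and less RNA per cell cannot be told apart.

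Against the male Tg array, Gad1 was 4.68-fold higher on male Tg E2 (2.23, SE 0.25) and ranked 22 from the highest of 14618 measured genes. It was 4.04-fold higher on female Tg (2.02, SE 0.25) and ranked 19 from the highest of 14209. These comparisons share the male Tg array, so a low reading there raises both, and it is the array on which Gad1 was chosen as low. With background handled by the normexp method in place of the scanner software's correction, the log2 differences were 1.24 for male Tg E2 and 1.08 for female Tg. The male Tg E2 and female Tg arrays differed by 0.21 log2 (SE 0.21), so their order is not settled.

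The Gad1 value rests on 1 probe with 1 spot per array. It has no second probe to set beside it. The first 30 of its 60 bases and the 250 bases before the RefSeq start of the gene are shown, because they are the sequence measured and the promoter in which motifs were searched. All 3 reading frames of the whole probe hold a stop codon. The upstream stretch is chr2:70561879-70562128 on the plus strand of GRCm38.p6, from RefSeq, which is another build than that of the probe positions. Capitals mark the single E-box (CANNTG) found on it.
Gad1 probe: gagtgcccttaacataatgatttgaacata
Gad1 upstream: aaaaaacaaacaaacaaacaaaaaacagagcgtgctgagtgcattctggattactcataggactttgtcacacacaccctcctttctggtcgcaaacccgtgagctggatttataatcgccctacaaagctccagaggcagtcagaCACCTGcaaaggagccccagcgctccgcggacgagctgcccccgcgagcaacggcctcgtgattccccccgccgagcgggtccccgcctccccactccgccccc

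Motifs were searched in both strands of the 250 upstream bases, and RefSeq promoters were matched for 7 of the 8 genes, all but Abat. The stretch before Gad1 is 58% G and C and holds 17 CpG steps. The E-box, CANNTG, occurred in 66.2% of 32851 mouse promoters of that length, and it occurred in those of Gad1, Gad2, Aldh5a1 and Slc32a1. The cAMP response element TGACGTCA occurred in 1.55% of promoters and its core TGACG, which lies within it, in 17.8%. The core was in the promoters of Gad2 and Aldh5a1, and the full element was in none of the 7. The palindromic estrogen response element was in 0.0639% of promoters and in none of the 7. These are letter matches in a short window and say nothing of binding.

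Gad2, which encodes GAD65, gave too little signal to compare. Its probe (chr2:22549095-22549154, plus strand) had an intensity of 17.3 on male Tg E2, 15.7 on female Tg, 6.60 on male Tg and 23.4 on male WT. It was well above background on male WT alone. There its level of −3.96 was too near the weakest signals on the other arrays to give a bound, with levels of −4.11 on male Tg E2, −4.06 on female Tg and −4.94 on male Tg. A change in Gad2 could not be read at this signal in either direction. The first 30 bases of the probe are shown because the absence of a clear Gad2 signal rests on this sequence alone.
Gad2 probe: agtaacaggacaaagaagcaaaaacatcaa

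**Figure D1:**
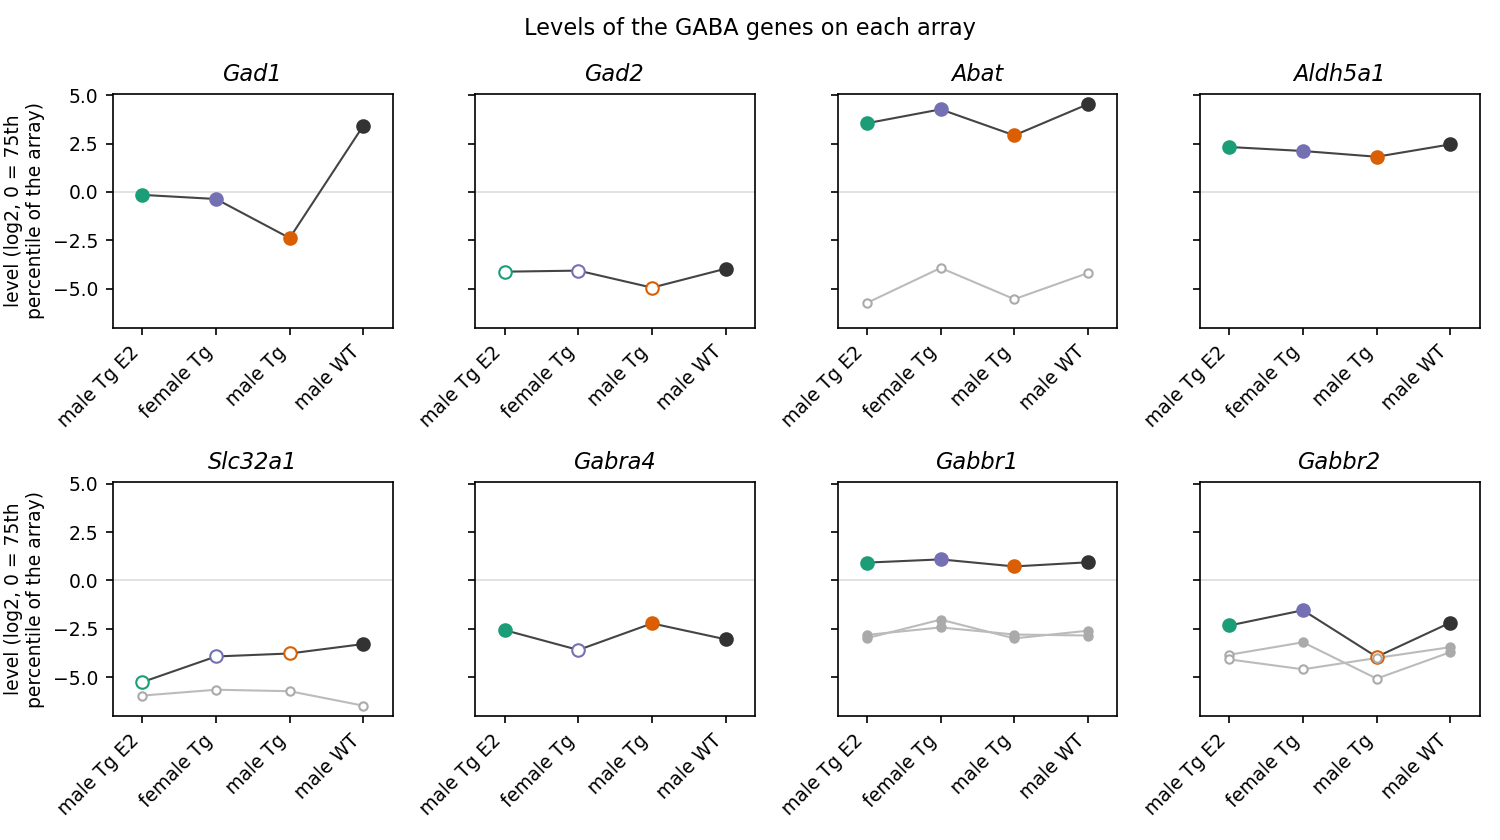
Log2 level of each of the 8 genes (vertical axis, 0 is the 75th percentile of the array) on the male Tg E2, female Tg, male Tg and male WT arrays (horizontal axis), with 1 point per array. Large coloured points are the probe used for the gene and small grey points its other probes, open points are not well above background, and lines join the points of 1 probe. Gad1 stands at 3.42 on male WT and between −2.38 and −0.15 on the transgenic arrays, while Aldh5a1 spans 0.64 log2 and Gabbr1 is nearly level.

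Of the enzymes that break GABA down, Abat was lower on male Tg and Aldh5a1 differed less. The Abat probe at chr16:8621576-8621635 (plus strand) had levels of 3.55 on male Tg E2, 4.26 on female Tg, 2.92 on male Tg and 4.53 on male WT. The male Tg array was the lowest and the male WT array the highest, with the female Tg array close to it. Male Tg stood 3.05-fold below male WT (−1.61, SE 0.20). Abat was 2.54-fold higher on female Tg than on male Tg (1.34, SE 0.20) and 1.54-fold higher on male Tg E2 than on male Tg (0.63, SE 0.20). The male Tg E2 difference ranged from 0.22 to 0.73 over the ways of processing tried, and was 0.22 with the median over all probes of the gene. That median takes in a probe that was above background on no array. The next lowest value was 0.51, relative to the median of all measured genes.

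Against male WT, Abat was 1.98-fold lower on male Tg E2 (−0.98, SE 0.20) and 1.20-fold lower on female Tg (−0.27, SE 0.20). The female Tg difference is little more than its error. The male Tg E2 array lay 0.72 log2 below the female Tg array (SE 0.20).

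A second Abat probe, at chr16:8603069-8603128, was above background on no array. It was designed on another transcript record and holds near its end the letters AATAAA, in capitals here, which are those of the common polyadenylation signal. The first 30 bases of the probe with signal and the last 30 bases of the one without are set side by side because the Abat result rests on the first alone.
Abat probe with signal: ggtgaccacgtgaacagttccatgaattaa
Abat probe without signal: ttcaacaaaccctgactgtggctAATAAAa

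Aldh5a1, which encodes the next enzyme of the shunt, had levels of 2.32 on male Tg E2, 2.11 on female Tg, 1.82 on male Tg and 2.46 on male WT. The 4 levels span 0.64 log2, with male Tg lowest and male WT highest. Male Tg stood 0.64 log2 below male WT (SE 0.20). The male Tg E2 array was 0.50 above the male Tg array (SE 0.20) and 0.14 below the male WT array (−0.14, SE 0.20). The female Tg array was 0.30 above the male Tg array (SE 0.20) and 0.34 below the male WT array (−0.34, SE 0.20). No Aldh5a1 difference reached 2-fold, and the male Tg E2 and female Tg arrays differed by about their error (0.21, SE 0.20). The probe lies at chr13:25003412-25003471 on the minus strand. It is shown whole because it holds TAG triplets. Capitals mark the TAG that starts at base 40, and an earlier TAG is left in lower case.
Aldh5a1 probe: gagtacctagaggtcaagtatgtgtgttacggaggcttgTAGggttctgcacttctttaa

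Slc32a1 encodes the vesicular transporter that loads GABA into synaptic vesicles. Its brighter probe (chr2:158440166-158440225, plus strand) had levels of −5.24 on male Tg E2, −3.92 on female Tg, −3.77 on male Tg and −3.28 on male WT. It was above background on male WT alone. The bounds were small, at least 1.37-fold lower on male Tg E2, at least 1.11-fold lower on female Tg and at least 1.20-fold lower on male Tg than on male WT. A second probe (chr2:158441324-158441383) was above background on no array. The brighter probe is shown because the bounds rest on it.
Slc32a1 probe with signal: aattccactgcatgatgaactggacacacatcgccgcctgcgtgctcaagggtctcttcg

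Gabra4, which encodes the alpha4 subunit of the GABA-A chloride channel, had intensities of 50.7 on male Tg E2, 21.7 on female Tg, 43.6 on male Tg and 44.5 on male WT. As levels these are −2.56 for male Tg E2, −3.59 for female Tg, −2.22 for male Tg and −3.04 for male WT. The probe (chr5:71961055-71961114, minus strand) was above background on the 3 male arrays and not on female Tg. Male Tg stood 0.82 log2 above male WT (SE 0.29), with a range of 0.23 to 1.03 over the ways of processing tried. The intensities on male Tg and male WT were nearly equal before scaling. The same scaling enters every difference reported here. The 75th percentile was 230 on male Tg and 410 on male WT. Gabra4 was at least 2.33-fold lower on female Tg than on male Tg and at least 1.32-fold lower there than on male WT. The male Tg E2 array was 0.35 below the male Tg array (−0.35, SE 0.29) and 0.48 above the male WT array (SE 0.29), both under 2 standard errors.

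Gabbr1 and Gabbr2 encode the subunits that pair to form the GABA-B receptor, Gabbr1 binding GABA and Gabbr2 coupling to the G protein. Gabbr1 was nearly level. Its brightest probe (chr17:37210986-37211045, plus strand) had levels of 0.92 on male Tg E2, 1.09 on female Tg, 0.72 on male Tg and 0.94 on male WT. Differences from male WT were −0.02 for male Tg E2 (SE 0.20), 0.15 for female Tg (SE 0.20) and −0.21 for male Tg (SE 0.21). The female Tg array was 0.36 above the male Tg array (SE 0.21) and the male Tg E2 array 0.20 above it (SE 0.21).

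Gabbr1 had 2 dimmer probes, at chr17:37206959-37207018 and chr17:37209174-37209232. The first had levels of −2.98 on male Tg E2, −2.02 on female Tg, −2.99 on male Tg and −2.59 on male WT. The second had levels of −2.81 on male Tg E2, −2.42 on female Tg, −2.79 on male Tg and −2.84 on male WT. All 3 probes read highest on female Tg. Female Tg exceeded male Tg by 0.97 log2 on the first dimmer probe and by 0.37 on the second, against 0.36 on the brightest. The 2 dimmer probes are shown because they sample other stretches of the gene than the brightest does.
Gabbr1 probe at 37206959: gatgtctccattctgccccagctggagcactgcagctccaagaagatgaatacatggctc
Gabbr1 probe at 37209174: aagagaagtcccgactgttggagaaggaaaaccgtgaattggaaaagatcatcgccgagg

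Gabbr2 was in background on male Tg and measured on the other 3 arrays. Its brightest probe (chr4:46677374-46677433, minus strand) had intensities of 59.8 on male Tg E2, 90.0 on female Tg, 13.2 on male Tg and 80.7 on male WT. As levels these are −2.32 for male Tg E2, −1.54 for female Tg, −3.94 for male Tg and −2.18 for male WT. The male Tg reading was the lowest and the female Tg reading the highest. Gabbr2 was at least 2.32-fold higher on male Tg E2 and at least 4.01-fold higher on female Tg than on male Tg, and at least 2.57-fold lower on male Tg than on male WT. Against male WT, male Tg E2 differed by −0.15 log2 (SE 0.26) and female Tg by 0.64 (SE 0.24). The female Tg difference was 0.23 under normexp with quantile normalization and 0.25 with the median over all probes.

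The other Gabbr2 probes were dim. The probe at chr4:46677030-46677089 had levels of −3.83 on male Tg E2, −3.19 on female Tg, −5.07 on male Tg and −3.70 on male WT, and was above background on the female Tg and male WT arrays. It too read lowest on male Tg and was at least 1.27-fold higher on female Tg than on male Tg. The remaining probe spans 5435 bases of the genome (chr4:46731752-46737186), so its 60 bases cross a splice junction, and it was above background on male WT alone. Its levels were −4.08 on male Tg E2, −4.58 on female Tg, −4.00 on male Tg and −3.44 on male WT. It did not read higher on female Tg than on male Tg, and both those readings were in background.

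**Figure D2:**
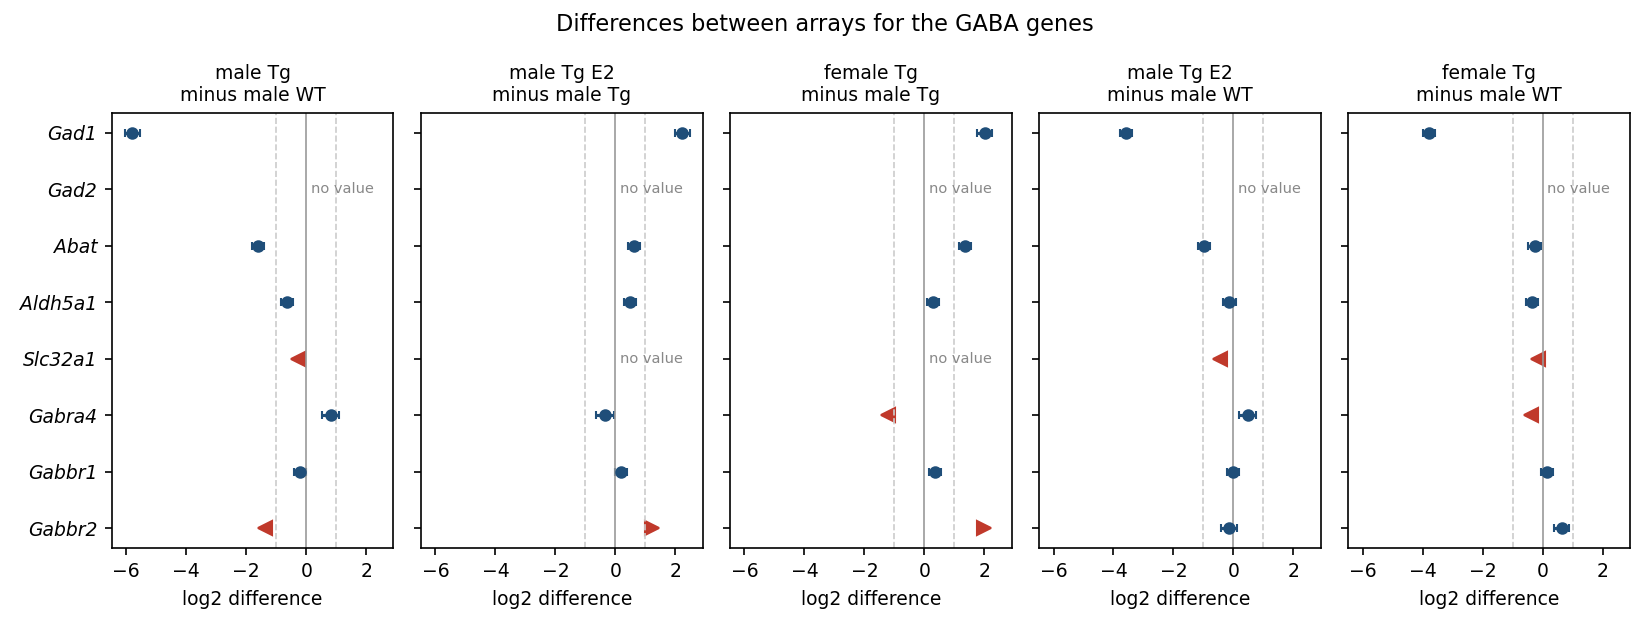
Log2 difference between arrays (horizontal axis) for each of the 8 genes (rows) in 5 comparisons, with male Tg minus male WT at the left. Points are measured differences with bars of 1 standard error of the scanner software's error model, triangles are bounds that point away from 0, and dashed lines mark 2-fold. Gad1 lies beyond 2-fold in all 5 panels, at −5.80 for male Tg minus male WT, 2.23 for male Tg E2 minus male Tg, 2.02 for female Tg minus male Tg, −3.57 for male Tg E2 minus male WT and −3.78 for female Tg minus male WT, while Gabbr1 lies inside 2-fold in all 5.

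The members that passed 2-fold were counted in each comparison. Gad1 is in every count, and its low reading on male Tg against male WT chose the set. In male Tg E2 against male Tg, 5 genes were measured, of which 1 (Gad1) was at least 2-fold higher and none lower, where 2.54% of all measured genes passed 2-fold higher and 8.01% lower. Gabbr2 passed 2-fold higher as a bound. In female Tg against male Tg, 4 genes were measured, of which 2 (Gad1 and Abat) were higher and none lower, where 3.51% of all measured genes were higher and 8.57% lower. Gabbr2 passed 2-fold higher and Gabra4 2-fold lower as bounds.

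In male Tg E2 against male WT, 1 of 6 measured genes (Gad1) was at least 2-fold lower and none higher, where 2.64% of all measured genes were lower and 8.82% higher. In female Tg against male WT, 1 of 5 measured genes (Gad1) was lower and none higher, where 3.47% of all measured genes were lower and 7.65% higher. In male Tg against male WT, which chose the genes, 2 of 5 measured genes (Gad1 and Abat) were lower and none higher, where 8.68% of all measured genes were lower and 15.6% higher. Gabbr2 was lower there as a bound, and nothing is read from this count.

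The median log2 difference of the measured members was 0.50 for male Tg E2 against male Tg, where that of all measured genes was 0.12, and 0.85 for female Tg against male Tg, where that of all genes was 0.10. Against male WT the members' medians were −0.14 for male Tg E2, −0.27 for female Tg and −0.64 for male Tg, and those of all genes were −0.09 for male Tg E2, −0.12 for female Tg and −0.21 for male Tg. These medians rest on 4 to 6 genes that were above background on both arrays, not on all 8. Gad1, chosen for its low reading on male Tg against male WT, is among them. Its choice pulls the medians against male Tg up and those against male WT down. The comparisons share the male Tg or the male WT array with each other.

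Beside these differences, markers of other cells moved with the arrays. The median log2 difference of the 12 beta cell markers was 0.60 for male Tg E2 and 0.95 for female Tg against male Tg. Of the 12, 4 were at least 2-fold higher on male Tg E2 and 6 on female Tg. Among all measured genes the share was 2.54% on male Tg E2 and 3.51% on female Tg. Against male WT the beta cell median was −0.85 for male Tg E2, −0.64 for female Tg and −1.72 for male Tg. In male Tg against male WT, 8 of the 12 were at least 2-fold lower and none higher. The lower ones include Ucn3 (−4.39), Trpm5 (−4.29) and the glucose transporter gene Slc2a2 (−2.24). Of all measured genes, 8.68% were lower there and 15.6% higher. The insulin genes Ins1 and Ins2 read 0.67 and 0.73 log2 higher on male Tg than on male WT. The summed beta cell level was 2663 on male Tg E2, 2572 on female Tg, 3384 on male Tg and 2761 on male WT, so the sum, carried by the brightest genes, was highest where the median difference was lowest.

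The acinar median against male WT was 3.59 for male Tg E2, 0.15 for female Tg and 4.36 for male Tg. None of the 12 acinar markers differed by 2-fold on female Tg against male WT, where 3.47% of all measured genes were lower and 7.65% higher. The medians against male WT of connective tissue markers (3.38 for male Tg E2, 2.35 for female Tg and 3.88 for male Tg) and lymphocyte markers (1.71 for male Tg E2, 3.35 for female Tg and 3.61 for male Tg) were higher on every transgenic array. So were those of the other endocrine cells, with alpha cell medians of 1.51 for male Tg E2, 1.44 for female Tg and 1.22 for male Tg, and delta cell medians of 1.18 for male Tg E2, 1.47 for female Tg and 1.35 for male Tg. Macrophage medians were 1.19 for male Tg E2, 0.88 for female Tg and 1.01 for male Tg. Endothelial medians (0.40 for male Tg E2, 0.23 for female Tg and 0.67 for male Tg) and Schwann and nerve medians (0.41 for male Tg E2, 0.41 for female Tg and 0.69 for male Tg) were smaller.

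Ductal medians (0.72 for male Tg E2, −0.71 for female Tg and −0.09 for male Tg) and erythrocyte medians (−1.23 for male Tg E2, 0.42 for female Tg and 2.26 for male Tg) had no common direction. Of 8 neuron markers, a group of cells that also make GABA, 5 were above background on all 4 arrays and 3 on none. The 5 were Snap25, Rbfox3, Tubb3, Elavl4 and Map2, and the 3 were Dlx1, Dlx2 and Calb2. Whether the signal of the 5 came from neurons or from other islet cells was not tested. The median of those 5 against male WT was −0.07 for male Tg E2, −0.23 for female Tg and −0.10 for male Tg, and none of them reached 2-fold. Of all measured genes, 2.64% were lower and 8.82% higher on male Tg E2 than on male WT. The shares were 3.47% and 7.65% on female Tg and 8.68% and 15.6% on male Tg. With 5 genes, a count of none says little. The part of these cell types in the differences of the GABA genes was not tested.

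The rest of the GABA pathway was taken as 10 lists with 98 genes, of which 68 were above background on all 4 arrays and 17 on none. A list of 12 genes for succinate handling holds the shunt's neighbours in the citric acid cycle, and 11 were measured in each comparison. None was 2-fold different for male Tg E2 against male Tg, female Tg against male Tg, male Tg E2 against male WT or male Tg against male WT. Against male WT, Suclg2, a subunit of succinyl-CoA ligase, was lower on female Tg (−1.09, SE 0.21). Of all measured genes, 8.01% were lower and 2.54% higher for male Tg E2 against male Tg. For female Tg against male Tg the shares were 8.57% and 3.51%. Against male WT they were 2.64% and 8.82% for male Tg E2, 3.47% and 7.65% for female Tg, and 8.68% and 15.6% for male Tg. So few calls among 11 genes say little about the list. The list medians were −0.03 for male Tg E2 and −0.41 for female Tg against male Tg, and −0.20 for male Tg E2 and −0.45 for female Tg against male WT. The medians of all measured genes were 0.12 for male Tg E2 and 0.10 for female Tg against male Tg. Against male WT they were −0.09 for male Tg E2 and −0.12 for female Tg.

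GAD needs pyridoxal phosphate as its cofactor. The 3 genes listed for its metabolism were measured on all arrays and none differed by 2-fold in the 5 comparisons. Their median was 0.12 for male Tg E2 and 0.46 for female Tg against male Tg. Of 5 GAD relatives and palmitoylation genes, 3 were measured and none reached 2-fold by the brightest probe, with medians of 0.57 for male Tg E2 and 0.52 for female Tg against male Tg. The shares of all measured genes are those given for the succinate list, such as 8.01% lower and 2.54% higher for male Tg E2 against male Tg. With 3 measured genes in each list, counts of none say little. Zdhhc17, the enzyme that attaches palmitate to GAD65, was 0.57 higher on male Tg E2 and 0.64 higher on female Tg than on male Tg (SE 0.21 each). Its 3 measured probes ranged from 0.34 to 0.57 for male Tg E2 and from 0.64 to 1.14 for female Tg against male Tg. The antisense transcript Gad1os was above background on no array.

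Glutamate supply held the largest differences of the lists. Of its 19 genes, 13 were measured in male Tg against male WT, of which 5 were at least 2-fold higher and 1 lower, where 15.6% of all measured genes were higher and 8.68% lower. Against male Tg the list had a median of −0.25 for male Tg E2, with 3 of 14 measured genes lower, where 8.01% of all measured genes were lower. For female Tg the median was −0.42, with 2 of 12 lower, where 8.57% of all measured genes were lower. None was higher in either by the brightest probe. The glutamine transporter gene Slc38a1 had levels of 0.58 on male Tg E2, 1.12 on female Tg, 1.98 on male Tg and −2.04 on male WT. It was high on every transgenic array, by 2.62 on male Tg E2, 3.17 on female Tg and 4.03 on male Tg (SE 0.22 each) relative to male WT. A dimmer probe of Slc38a1 was above background on the 3 transgenic arrays and not on male WT, and the remaining probe on none.

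The related transporter gene Slc38a3 had levels of −0.08 on male Tg E2, −4.23 on female Tg, 1.52 on male Tg and −3.06 on male WT. It was high on the male Tg E2 and male Tg arrays, and the female Tg reading was in background. The liver-type glutaminase gene Gls2, whose product makes glutamate from glutamine, had levels of 2.60 on male Tg E2, −0.43 on female Tg, 1.86 on male Tg and −0.36 on male WT. For both genes the arrays with high readings were those with high acinar sums. The part of acinar RNA in these readings was not tested.

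Glul, which encodes glutamine synthetase, ran the other way, with levels of 4.30 on male Tg E2, 4.10 on female Tg, 3.48 on male Tg and 4.98 on male WT. It stood 0.68 below male WT on male Tg E2 (−0.68), 0.89 below on female Tg (−0.89) and further below on male Tg (−1.50), with an SE of 0.20 each. The glutamate and neutral amino acid transporter genes Slc1a1 and Slc1a5 were higher on all 3 transgenic arrays than on male WT. Slc1a1 exceeded male WT by 2.23 on male Tg E2 (SE 0.34), 1.57 on female Tg (SE 0.36) and 2.36 on male Tg (SE 0.34). Slc1a5 exceeded it by 1.88 on male Tg E2, 1.23 on female Tg and 2.55 on male Tg (SE 0.21 each).

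GABA can also be made from putrescine, a route in which monoamine oxidase B (Maob) takes part. Maob had levels of 3.17 on male Tg E2, 3.99 on female Tg, 2.18 on male Tg and 4.57 on male WT. The arrays ranked in the same order as for Abat, with male Tg lowest and female Tg nearest to male WT. That order is not particular to these genes. The beta cell markers Mafa, Nkx6-1, Slc2a2, Ucn3, Slc30a8, Trpm5 and Ero1lb had it, while Pdx1, G6pc2, Iapp, Ins1 and Ins2 did not. Maob was 0.99 higher on male Tg E2 and 1.81 higher on female Tg than on male Tg, and stood 2.39 below male WT on male Tg (−2.39), with an SE of 0.20 each. The list of 6 genes had medians of −0.34 for male Tg E2 and −0.70 for female Tg against male Tg. Of these 6, 1 was lower and none higher in male Tg E2 against male Tg, where 8.01% of all measured genes were lower. That gene was Aoc1, a diamine oxidase that consumes putrescine, which was 4.17-fold lower (−2.06, SE 0.20). In female Tg against male Tg, Aoc1 was lower (−1.64, SE 0.20) and Maob higher. There 8.57% of all measured genes were lower and 3.51% higher.

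Of 18 other GABA-A subunit genes, 7 were measured in male Tg E2 against male Tg. Of these, 2 were at least 2-fold higher, where 2.54% of all measured genes were higher. Gabrd, for the delta subunit, had levels of −1.60 on male Tg E2, −2.31 on female Tg, −2.62 on male Tg and −2.39 on male WT. It was highest on male Tg E2 and was 2.04-fold higher on male Tg E2 than on male Tg (1.03, SE 0.26). None of 7 measured subunit genes reached 2-fold in female Tg against male Tg, where 8.57% of all measured genes were lower and 3.51% higher. The list median was 0.55 for male Tg E2 and −0.07 for female Tg against male Tg.

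Gabra3, for the alpha3 subunit, had levels of −1.85 on male Tg E2, −2.07 on female Tg, −1.13 on male Tg and −6.48 on male WT, the last in background. It was at least 5.35-fold higher on male Tg E2, at least 4.57-fold on female Tg and at least 8.78-fold on male Tg than on male WT. Gabrg3, for the gamma3 subunit, was 1.51 higher on male Tg E2 (SE 0.35), 2.04 higher on female Tg (SE 0.35) and 2.11 higher on male Tg (SE 0.34) than on male WT. Gabra3 and Gabrg3 were each read by 1 probe, their other probes being above background on no array.

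Receptor partners such as the scaffold gene Gphn and the trafficking gene Gabarap numbered 16. Of the 15 measured in male Tg E2 against male Tg and the 14 in female Tg against male Tg, none reached 2-fold by the brightest probe of the gene, and the medians were 0.21 for male Tg E2 and 0.26 for female Tg. Of all measured genes, 8.01% were lower and 2.54% higher in the former comparison and 8.57% and 3.51% in the latter. A count of none among so few genes says little beside those shares. The probes of the trafficking adaptor gene Trak1 disagreed, since the brighter one read 0.21 for male Tg E2 and 0.34 for female Tg against male Tg and the other −1.84 for male Tg E2 and −1.23 for female Tg. Of 11 uptake and release genes, the plasma membrane GABA transporter genes Slc6a11 and Slc6a12 were above background on no array and Slc6a13 on male Tg alone. The median of the 6 measured was 0.15 for male Tg E2 and −0.31 for female Tg against male Tg. Slc6a6, a taurine transporter gene, stood below male WT by 0.44 on male Tg E2 (−0.44), 0.52 on female Tg (−0.52) and 0.96 on male Tg (−0.96), with an SE of 0.20 each.

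The volume-regulated anion channel carries GABA out of beta cells in published work on islets. Its essential subunit gene Lrrc8a differed by 0.33 log2 or less in all 5 comparisons on its brighter probe. The other Lrrc8a probe read −0.74 for male Tg E2 and −0.75 for female Tg against male Tg, and 0.54 for male Tg against male WT. Lrrc8b was 1.29 lower on male Tg E2 (−1.29) and 1.06 lower on female Tg (−1.06) than on male Tg (SE 0.21 each). It was the only measured uptake and release gene at least 2-fold lower in either of those comparisons. Of all measured genes, 8.01% were lower for male Tg E2 and 8.57% for female Tg against male Tg. The anion channel gene Best1 was above background on male Tg E2 alone, at least 3.27-fold above male Tg and at least 5.41-fold above male WT.

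The chloride transporter genes Slc12a2 and Slc12a5, which set whether GABA excites or inhibits, did not reach 2-fold in any comparison. With 2 genes this says little, since most measured genes did not. For male Tg E2 against male Tg, 8.01% of all measured genes were lower and 2.54% higher. Their median was 0.53 for male Tg E2 and 0.31 for female Tg against male Tg. The list of 6 genes for other islet autoantigens had medians of 0.15 for male Tg E2 and 0.56 for female Tg against male Tg. Of these 6, the zinc transporter gene Slc30a8 was the one that reached 2-fold, at 1.17 higher on female Tg than on male Tg and 1.74 lower on male Tg than on male WT (−1.74, SE 0.20 each). Of all measured genes, 3.51% were higher in the former comparison and 8.68% lower in the latter. A single call among 6 genes says little about the list. This list shares Ins1, Ins2 and Slc30a8 with the beta cell markers.

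**Figure D3:**
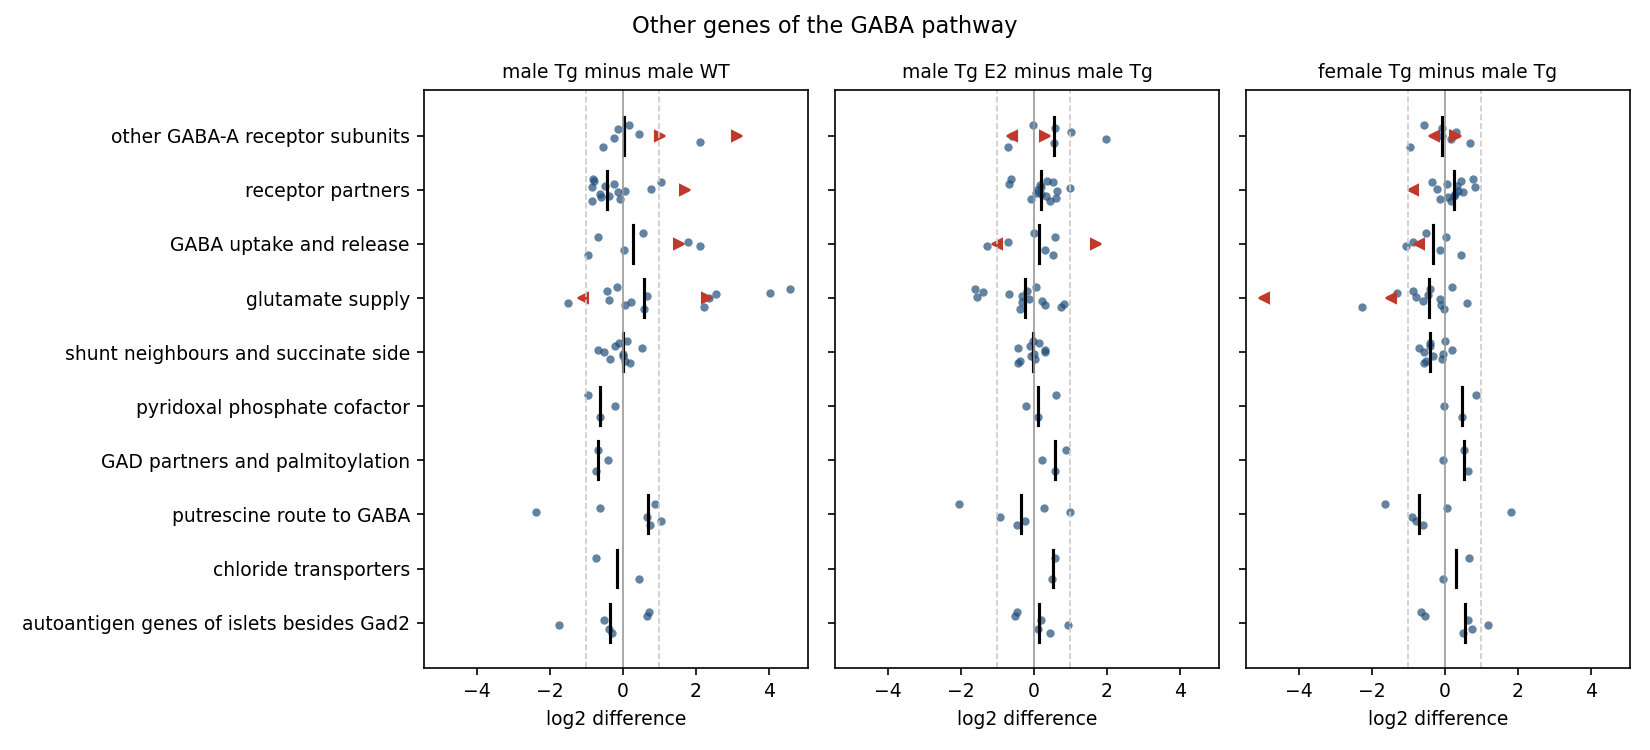
Log2 differences (horizontal axis) of the other GABA pathway genes, by list (rows), for male Tg minus male WT, male Tg E2 minus male Tg and female Tg minus male Tg (panels from left to right). Points are measured genes, triangles are bounds, black bars are list medians over measured genes and dashed lines mark 2-fold. Most genes lie within 2-fold, and glutamate supply has the widest spread, from −1.50 (Glul) to 4.59 (Slc38a3) among measured genes in the left panel.

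The genes whose 4 levels were most like those of Gad1 were found among 13890 genes above background on all 4 arrays. Each gene's levels were centred on their mean, and likeness is the Euclidean distance over the 4 arrays in log2 units. The nearest was T2 at 0.87, and the next were Cib3 (1.52), Kcnh4 (1.56), Olfr97 (1.62), Fbxo16 (1.64), Rasgrf1 (1.66), AI507597 (1.72), Prpmp5 (1.78), Prb1 (1.81) and Fam110a (1.81). Kcnh4 encodes a potassium channel and Rasgrf1 a Ras exchange factor. All 10 were, like Gad1, highest on male WT and lowest on male Tg, which choosing them by likeness to Gad1 favours.

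None of these 10 probes shared more than 7 bases in a row with the Gad1 probe. T2 was 3.50 lower on male Tg E2 (−3.50) and 2.73 lower on female Tg (−2.73) than on male WT. The members with smaller ranges had much closer neighbours. Those of Abat were 4732414G09Rik (0.0637), Ulk4 (0.0649) and Rab37 (0.0682), those of Aldh5a1 were Tmem8b (0.0213), Sin3a (0.0300) and Gtf3c3 (0.0317), and those of Gabbr1 were Dync1h1 (0.0208), Ece2 (0.0217) and Tmf1 (0.0235). With 4 arrays and 13890 genes, close neighbours are many for a flat pattern and few for a steep one.

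**Figure D4:**
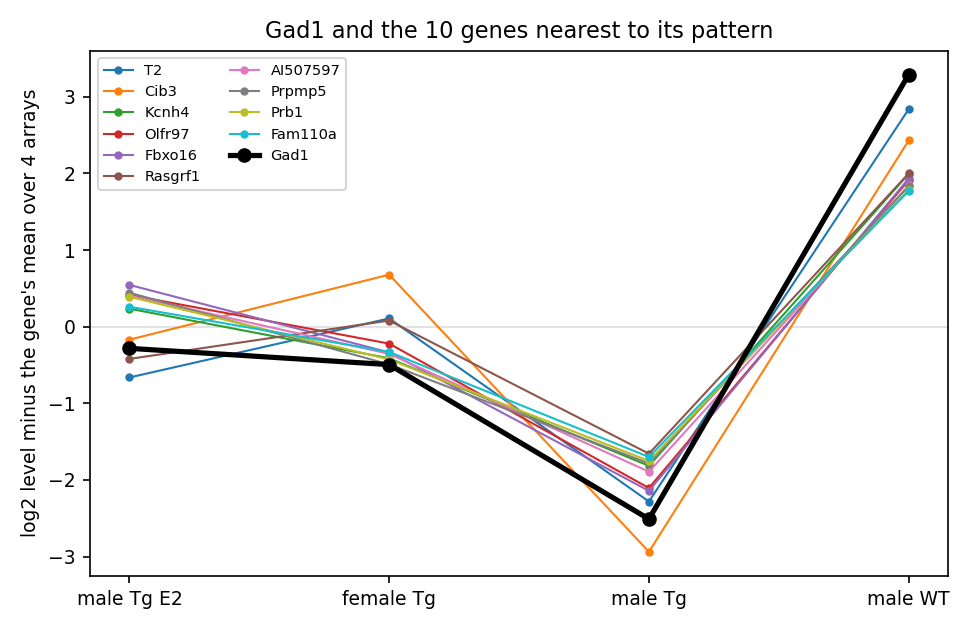
Log2 level minus the gene's mean over the 4 arrays (vertical axis) on the male Tg E2, female Tg, male Tg and male WT arrays (horizontal axis) for Gad1 (thick black line) and its 10 nearest genes (thin lines). All 11 lines peak on male WT and are lowest on male Tg, which the choice by likeness to Gad1 favours. Gad1 has the highest male WT point.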

How the data were processed

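Total RNA of islets was read on 4 one-colour Agilent arrays, 1 per group. The deposited scanner files give intensity on a linear scale per spot, background-corrected by the scanner software per the file headers. The scanner software was Feature Extraction, version 9.5.1.1 per the submitters' processing notes and 10.7.1.1 per the file headers, which give probe positions on mm9. No genome of that build was used, and probes were not placed in exons or introns. The deposited value table, an alternative here, also holds intensity and has the same set of values on every array, from the values themselves.

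Spots with an outlier flag were left out, spots of 1 probe averaged, log2 taken and the 75th percentile over the non-control probes subtracted from each array. Probes were named through a RefSeq table, 27235 by accession, 3581 by symbol and 565 by synonym. A gene is its probe with the highest mean level. A gene counted as different at 2-fold or more, and no test was possible with 1 array per group. The genes named are the members, genes of the pathway lists, some cell type markers, and those nearest in pattern. The members and all lists (the pathway lists and the beta, alpha and delta cell, acinar, ductal, endothelial, connective tissue, macrophage, lymphocyte, erythrocyte, Schwann and neuron markers) were chosen with earlier results of these data known. Calls were tested on simulated data. Alternatives changed the scaling, the background correction (normexp, offset 50, limma 3.58.1), the filter, the probe rule and the threshold. Python 3.11.15, numpy 2.4.6, pandas 2.3.3, matplotlib 3.10.9 and R 4.3.3 were used. A few genes of the lists and some probe sequences are not reported here.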

Additional observations from a re-analysis of the deposited data

How the results depend on the processing

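No paired analysis was possible because the labels give no replicate numbers and there was 1 array per group. Of 25 differences of the measured members, 22 kept 1 sign under the main processing and all 9 alternatives of value, the exceptions being Gabbr1 in male Tg E2 against male Tg (−0.02 to 0.21) and against male WT (−0.21 to 0.07) and Gabbr2 in male Tg E2 against male WT (−0.39 to 0.04). All 7 that were at least 2-fold kept their sign. Normexp moved Gad1 most, to −4.57 with 75th percentile scaling and −4.58 with quantile normalization for male Tg against male WT (−5.80 as reported). Gad1 differed by 1.24 and 1.44 for male Tg E2 and by 1.08 and 1.26 for female Tg against male Tg with the same pair of settings. Normexp adds an offset that pulls dim readings together, and the male Tg reading of 38.9 is dim. Counts of members moved by at most 1. At 1.5-fold, 1 gene was higher in female Tg against male WT, 1 in male Tg against male WT (also relative to the median of all genes) and 2 in male Tg E2 against male Tg (also with no background filter), and 2 were lower in male Tg E2 against male WT (also with no filter and with the median over probes). With no filter 1 was lower in male Tg E2 and 1 in female Tg, each against male Tg. In male Tg against male WT 3 were lower at 1.5-fold and with no filter (2 as reported), and in female Tg against male Tg 3 were higher with no filter (2 as reported). At 4-fold, 1 was higher in female Tg against male Tg and 1 lower in male Tg against male WT. Gad2, Slc32a1 and, on 1 array each, Gabra4 and Gabbr2 were limited by signal over background.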
